A study of Mus musculus with 20 samples.

Results

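Matrix metalloproteinases (MMPs) and tissue inhibitors of metalloproteinases (TIMPs) were followed at the level of mRNA in single cells of the mouse ovarian surface epithelium (OSE). The 9 genes were chosen by name as Mmp2, Mmp3, Mmp11, Mmp14, Mmp19, Mmp23, Timp1, Timp2 and Timp3, and 7 of them were among the 14299 genes with deposited counts. Mmp3 and Mmp23 were not analysed here. The OSE is the thin epithelium around the ovary, and E2 stands for the estrogen estradiol.

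Primary OSE cultures spent 48 hours in hormone-free medium before they received 100 nM E2, or ethanol at a final 0.0002% as the vehicle control, and were collected after 15 days. The strain and age of the mice that gave the cultures are not given in the sources used here. A Fluidigm C1 circuit trapped each cell in a site of its own, and each of its 20 columns gave 1 library of 3′ cDNA. The sample titles place control cells in columns 1 to 10 and E2-treated cells in columns 11 to 20. The paper does not describe how the cells were loaded. Each condition is taken here as 1 cell suspension, an inference from this layout. The spread between libraries may therefore be technical, and an effect of E2 cannot be told apart from a difference between these suspensions. Column 13 was not analysed here, which left 10 control and 9 E2 libraries with 589 cells.

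The authors divided the cells by clustering into cells that lay apart by treatment, here called responsive cells, and cells of both treatments that lay together, their cluster 1. The responsive cells numbered 203 in control and 218 in E2, and cluster 1 held 126 control and 42 E2-treated cells. The median depth was 143233 reads per cell in control and 117809 in E2 among responsive cells, and 112126 and 87632 in cluster 1. Genes detected per cell (medians of 4574, 4170, 4156 and 3710 in the same order) and the percent of mitochondrial reads (medians of 2.08, 2.43, 2.53 and 3.55) moved with the groups too, and their part in the results was not tested. All 10 listed OSE markers had reads, with a summed level of 4774 to 7760 CPM over both clusters. CPM of library sums are counts per 1e+06 of the total of a sum, after that total was adjusted by a scaling factor (TMM). E2 library 15 stood apart by its stromal fibroblast markers, which summed to 4669 CPM in its responsive cells against at most 2164 CPM in the other E2 libraries. The excess was in Dcn (2588 CPM) and Col3a1 (1962 CPM), while Col1a1 (94.5 CPM), Col1a2 (6.17 CPM) and Thy1 (15.9 CPM) lay within the range of the other E2 libraries. It held only 3 cluster 1 cells, where these markers summed to 10445 CPM. In responsive cells it held the lowest or highest E2 level of Timp1, Timp2, Timp3 and Mmp14, whose changes are given with and without it. In cluster 1 cells, so are those of Timp2, Timp3 and Mmp11.

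MMPs are zinc-dependent proteases that cut collagens, laminins, fibronectin and other proteins of the extracellular matrix. Most are secreted as inactive precursors, a few are anchored in the cell membrane, and TIMPs bind the active enzymes and block them. TIMP2 has a further role, since it can link the MMP2 precursor to the membrane protease MMP14, which then activates it. In the ovary, proteases of this family take part in opening the surface at ovulation and in its repair.

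Levels are CPM over the summed cells of 1 library and 1 cluster, with sums of fewer than 3 cells left out, which left 7 E2 libraries for cluster 1. A gene was called changed with E2 if its adjusted p was under 0.05 and its log2 fold change exceeded 0.5 in size. Of the 7 measured members, 6 had enough counts to be tested with E2 in responsive cells, and Mmp2 did not. Of these 6, 1 was called, the inhibitor Timp2, which fell, where 1.37% of all 10265 tested genes were called in either direction and 0.526% were called lower.

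**Figure D1:**
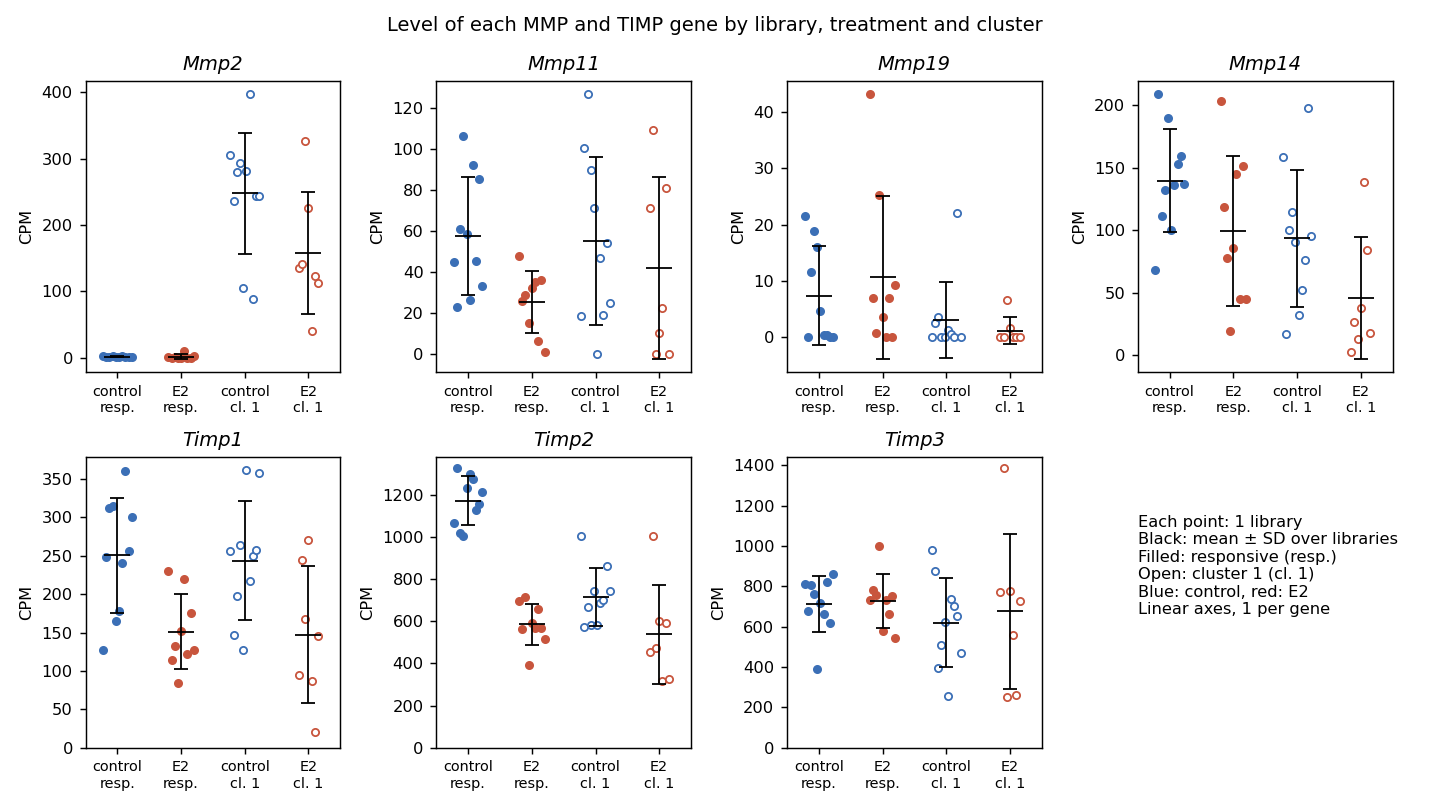
Level of the 7 measured genes in CPM, on a linear axis for each gene, with 1 point per library and the mean ± SD over libraries in black. The columns are control and E2 responsive cells (filled points, 10 and 9 libraries) and control and E2 cluster 1 cells (open points, 10 and 7 libraries). Timp2 lay at 392 to 714 CPM in E2 responsive cells and at 1004 to 1328 CPM in control responsive cells, and Mmp2 was near 0 in responsive cells and at 39.7 to 397 CPM in cluster 1.

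Timp2 lies on chromosome 11 (118301069 to 118355740, minus strand, GRCm38). Its level in responsive cells was 1004 CPM in the lowest, 1184 CPM in the median and 1328 CPM in the highest control library. With E2 it was 392 CPM in the lowest, 568.3 CPM in the median and 714 CPM in the highest library. All 9 E2 libraries lay below all 10 control libraries, a separation toward lower levels that 0.146% of tested genes showed. The mean was 1171 ± 115 CPM (SD, n = 10) in control and 585 ± 98.2 CPM (SD, n = 9) in E2. This is a log2 fold change of -1.01 (SE 0.11), or 49.8% of the control level (edgeR, adjusted p = 2.23e-06). Timp2 ranked 8 by p-value among the 10265 tested genes. Of the 54 genes called lower, 19 had a larger fall.

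The lower Timp2 level was spread over the cells rather than carried by a few of them. All 203 control responsive cells and 213 of 218 E2 responsive cells had a Timp2 read. The median level in single cells was 1084 CPM in control responsive cells (quartiles 651 and 1517) and 447 CPM in E2 responsive cells (quartiles 242 and 796). Of the E2 responsive cells, 11.9% exceeded the control median. Thinning every cell to 20000 reads, which removes the difference in depth, left the log2 fold change at -0.999 (edgeR adjusted p = 2.42e-06). Without library 15, which had the lowest Timp2 level of the E2 libraries, it was -0.95 (edgeR adjusted p = 2.37e-08).

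**Figure D2:**
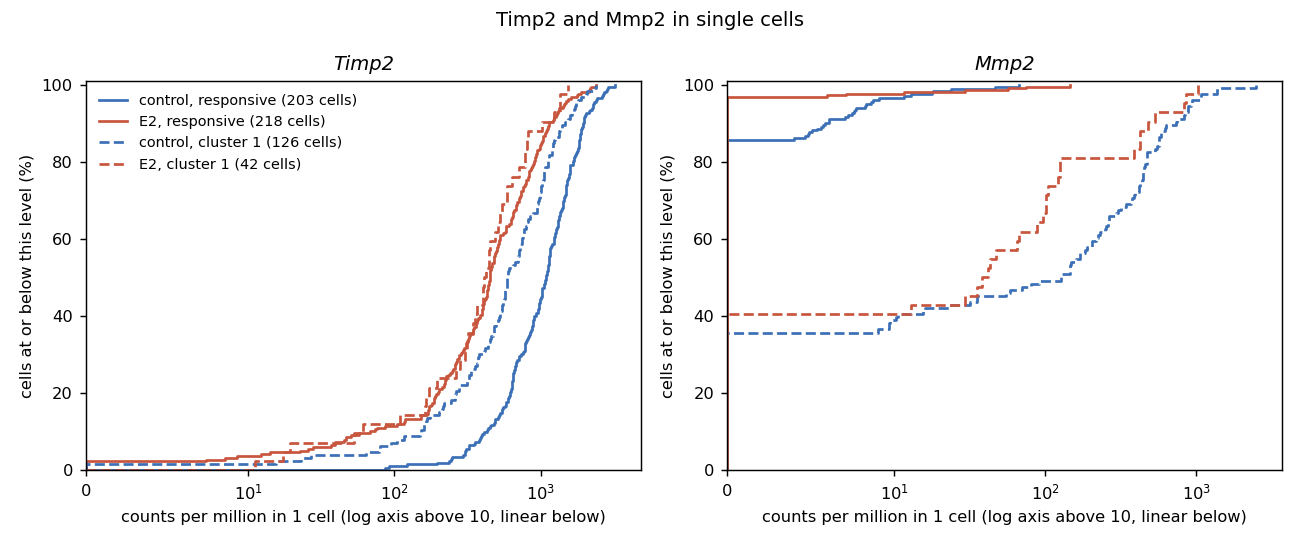
Cumulative share of cells (%) against the level of Timp2 (left) and Mmp2 (right) in single cells, in CPM on an axis that is logarithmic above 10 and linear below. Solid lines are responsive cells and dashed lines cluster 1 cells, in blue for control and red for E2. The Timp2 curve of E2 responsive cells (median 447 CPM) lies to the left of that of control responsive cells (median 1084 CPM), and the Mmp2 curves of responsive cells start high, since 14.3% of control and 3.21% of E2 cells had a read.

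Timp1, a soluble inhibitor of many MMPs, lies on chromosome X (20870166 to 20874735, plus strand). It was at 128 CPM in the lowest, 252 CPM in the median and 361 CPM in the highest control library of responsive cells. In E2 libraries it was at 84.4 CPM, 132 CPM and 230 CPM. The groups overlapped, with 4 of 9 E2 libraries below the lowest control library and all 9 below the control median. Its log2 fold change of -0.74 (SE 0.20, edgeR adjusted p = 0.0722) missed the threshold. DESeq2 on the same sums put it past the threshold (adjusted p = 0.0219), where that tool called 2.28% of genes. Leaving out control library 1, E2 library 11 or E2 library 17 did the same, with edgeR adjusted p = 0.0292, 0.0361 and 0.0418. Leaving out any other of the 19 libraries did not, with edgeR adjusted p of up to 0.137. Timp1 was not called by limma-voom (adjusted p = 0.0617) or in thinned cells (edgeR adjusted p = 0.0634). Without E2 library 15, which had its lowest level, the log2 fold change was -0.66 (edgeR adjusted p = 0.0849). A read of Timp1 was seen in 80.3% of control and 60.1% of E2 responsive cells, and after thinning in 65.5% and 48.2%.

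Timp3, the inhibitor that binds to the matrix itself, is on chromosome 10 (86300372 to 86349506, plus strand). It was at 391 CPM, 740 CPM and 861 CPM in the lowest, median and highest control library and at 545 CPM, 734 CPM and 1001 CPM in E2 libraries. The ranges overlapped. Its log2 fold change was 0.02 (SE 0.14, edgeR adjusted p = 0.987), and an interval of 2 SE on each side ran from -0.25 to 0.29, which does not reach the change measured for Timp2. Without E2 library 15, which had its highest level, the log2 fold change was -0.045 (edgeR adjusted p = 0.968). Timp3 overlaps Syn3 on the other strand, which was at a mean of 293 CPM in control and 169 CPM in E2 responsive cells, and in 420 of the 543 cells with a Timp3 count that count was not whole. Timp1 and Mmp2 counts were whole in every cell. Counts were not whole in 204 of the 582 cells with one for Timp2 and 56 of 168 for Mmp11. The same held in 47 of 347 for Mmp14 and 11 of 36 for Mmp19. Timp2 overlaps Cep295nl on the same strand, which was at a mean of 3.54 CPM in control and 0 CPM in E2 responsive cells.

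Among the proteases, Mmp11, or stromelysin-3, which is secreted in an already active form, was on chromosome 10 (75923222 to 75936496, minus strand). It was at 22.8 CPM, 51.7 CPM and 106 CPM in the lowest, median and highest control library of responsive cells and at 0.841 CPM, 28.6 CPM and 47.7 CPM in E2 libraries. All 9 E2 libraries lay below the control median, and 5 of 10 control libraries lay above the highest E2 library. Mmp11 had a log2 fold change of -1.20 (SE 0.44, edgeR adjusted p = 0.287), which missed the threshold. In cells thinned to 20000 reads it was -1.73 (adjusted p = 0.0262) and was called, where 0.901% of the genes tested at that depth were called lower. A read of Mmp11 was found in 36.5% of control and 19.3% of E2 responsive cells, and after thinning in 25.6% and 10.1%. Mmp11 overlaps Chchd10 on the other strand, which had 120799 reads in all against 3203 for Mmp11. Whether counting used the strand is not given in the sources used here, and Chchd10 was at a mean of 1971 CPM in control and 1611 CPM in E2 responsive cells.

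Mmp14, the membrane-anchored protease MT1-MMP, is on chromosome 14 (54431612 to 54445364, plus strand). Its level was 68.4 CPM, 137 CPM and 209 CPM in the lowest, median and highest control library and 19.5 CPM, 85.6 CPM and 203 CPM in E2 libraries. Most of the E2 range lay inside the control range, with 3 of 9 E2 libraries below it. A log2 fold change of -0.50 (SE 0.30, edgeR adjusted p = 0.654) did not pass. Without E2 library 15, which had the lowest level, it was -0.36 (SE 0.26, edgeR adjusted p = 0.759).

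Mmp19, a secreted protease of basement membrane proteins, was hardly detected. It had a read in 7.39% of control and 6.42% of E2 responsive cells. Its level was 0 in 3 of 10 control and 2 of 9 E2 libraries and reached 21.5 and 43.1 CPM in the highest. Its log2 fold change of 0.51 had an SE of 1.04 (edgeR adjusted p = 0.944), so that a change with E2 was not detectable at this depth. Mmp19 overlaps Tmem198b on the other strand, which was at a mean of 38.2 CPM in control and 18.5 CPM in E2 responsive cells.

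**Figure D3:**
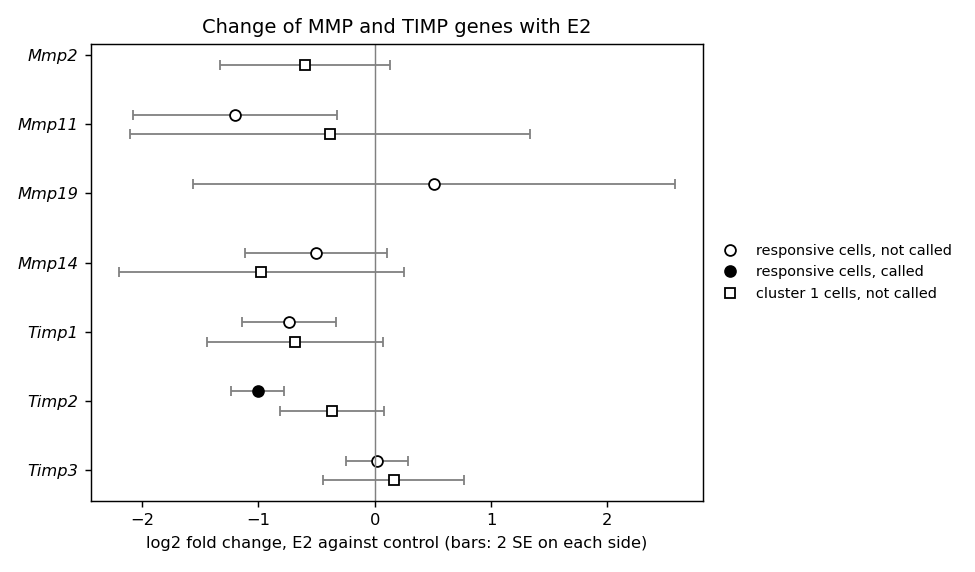
Log2 fold change with E2 against control for each gene, with bars of 2 SE on each side, in responsive cells (circles) and cluster 1 cells (squares). Filled symbols passed the thresholds. Only Timp2 in responsive cells is filled, at -1.01, and genes without a symbol had too few counts for that test.

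The stretch before the transcription start is shown for the members whose window holds no annotated untranslated sequence, so that the letters can be read beside the changes above. RefSeq (GRCm38.p6) gave 250 bases upstream of the start for 5 of the 7 measured members, and had no entry used here for Mmp2 and Mmp19. Capitals mark the GC box, GGGCGG on either strand. Timp1 is at chrX:20869916-20870165 (plus strand), Mmp14 at chr14:54431348-54431597 (plus strand) and Mmp11 at chr10:75932503-75932752 (minus strand). The Mmp11 window precedes the start that RefSeq gives, and it lies inside the span of the gene given above, since GENCODE has a further transcript that starts at 75936496.
Timp1: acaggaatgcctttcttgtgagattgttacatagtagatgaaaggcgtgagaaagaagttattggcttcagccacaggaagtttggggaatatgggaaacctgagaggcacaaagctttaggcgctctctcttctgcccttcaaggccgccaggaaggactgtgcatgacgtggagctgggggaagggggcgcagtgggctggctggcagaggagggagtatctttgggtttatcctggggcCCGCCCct
Mmp14: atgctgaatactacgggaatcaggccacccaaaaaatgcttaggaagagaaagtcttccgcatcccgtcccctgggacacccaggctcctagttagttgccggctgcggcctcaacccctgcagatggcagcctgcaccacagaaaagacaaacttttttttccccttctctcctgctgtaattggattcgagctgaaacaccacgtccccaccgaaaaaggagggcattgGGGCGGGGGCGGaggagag
Mmp11: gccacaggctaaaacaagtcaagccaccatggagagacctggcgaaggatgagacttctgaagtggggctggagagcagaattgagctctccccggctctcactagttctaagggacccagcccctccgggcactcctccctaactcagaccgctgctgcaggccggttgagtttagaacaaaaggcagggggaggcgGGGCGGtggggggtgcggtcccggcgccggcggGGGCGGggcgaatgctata

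The window of Timp2 (chr11:118355412-118355661) held 203 bases annotated as untranslated and that of Timp3 (chr10:86300162-86300411) held 40, and both were searched but not printed. A GC box stood in all 5 windows, placed here by its first base before the start that RefSeq gives. It lay 37 bases before that start in Timp2, 8 in Timp1, 15 in Timp3, 19 and 13 in Mmp14, and 52 and 19 in Mmp11. The Timp2 window lies wholly inside the gene span given above, as that of Mmp11 does, and so does the GC box of Timp3. These boxes are thus within the annotated genes and not upstream of them. Of all 32851 windows of this length, 32.7% held a GC box. None of the 5 held the full palindromic estrogen response element (in 0.0639% of all windows), a single arm of it (TGACCT, 14.02%), an AP-1 site (TGANTCA, 6.75%) or a TATA box (TATAAA, 12.4%). Both strands were searched, and a single arm may overlap a full element. A missing match says only that these letters are not in this window. The windows were 54.4% to 68% G and C, against a median of 52.4% over all windows.

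In cluster 1 cells, no member was called with E2, where edgeR called 7 of 8340 tested genes (0.0839%), 622 genes had an unadjusted p below 0.05, and DESeq2 called 52 genes (0.624%), none of them a member. Mmp2, the gelatinase that cuts type IV collagen, is on chromosome 8 (92827291 to 92853420, plus strand) and was tested in these cells only. It was at 88.5 CPM, 262 CPM and 397 CPM in the lowest, median and highest control library and at 39.7 CPM, 135 CPM and 327 CPM in E2 libraries. Of the 7 E2 libraries, 6 lay below the control median and 1 below the lowest control library. With E2 it changed by a log2 of -0.60 (SE 0.37, edgeR adjusted p = 0.799), which did not pass.

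Timp2 in cluster 1 was at 571 CPM, 693 CPM and 1002 CPM in the lowest, median and highest control library and at 318 CPM, 471 CPM and 1005 CPM in E2 libraries. The highest E2 value came from the 3 cells of library 15, and the next was 601 CPM. Over all 7 libraries the log2 fold change was -0.37 (SE 0.22, edgeR adjusted p = 0.797), without library 15 it was -0.59 (SE 0.18, adjusted p = 0.363), and it was -0.20 by DESeq2 and -0.19 with RLE scaling. The other members gave -0.98 for Mmp14 (SE 0.61), -0.69 for Timp1 (SE 0.38), -0.39 for Mmp11 (SE 0.86) and 0.16 for Timp3 (SE 0.30), with adjusted p-values of 0.741 to 0.970. These values moved with the processing, from -1.51 to -0.89 for Mmp14, -1.07 to -0.53 for Timp1 and -1.20 to -0.19 for Mmp11 over the alternatives, and none was called. Mmp14 was at -1.56 without E2 library 18, and Mmp11 at -0.80 without E2 library 15 and -0.13 without control library 3. Timp3, whose highest E2 level (1386 CPM) came from the 3 cells of library 15, was at -0.11 without that library. Mmp19 had about 4 reads in E2-treated cluster 1 cells and was not tested.

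Whether E2 acted differently in cluster 1 and in responsive cells was tested by an interaction term. The main fit took the cluster sums of a library as separate samples, and a fit with the library as a block is given further below. No member passed, where 0.184% of 11398 genes were called (21 by edgeR, 1244 with an unadjusted p below 0.05, 98 or 0.86% by DESeq2). For Timp2 the fall was smaller in cluster 1 by 0.59 (log2, SE 0.23, edgeR adjusted p = 0.304). That value ranged from 0.32 to 0.83 over 8 alternatives, with adjusted p-values of 0.0996 to 0.718. A difference between the clusters in the response of Timp2 was thus not shown. The term was 0.76 for Mmp11 (SE 0.93), -0.51 for Mmp14 (SE 0.65), -1.82 for Mmp19 (SE 1.90), -0.84 for Mmp2 (SE 0.80), -0.012 for Timp1 (SE 0.41) and 0.089 for Timp3 (SE 0.33), where the median of all genes was -0.19.

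The levels in cluster 1 and in responsive cells are given as a description, without a test, because the authors clustered the cells on these same genes. Mmp2 had the largest difference of the 7 members. In responsive cells its level was 0.584 to 3.18 CPM over 10 control libraries and 0 to 10.3 CPM over 9 E2 libraries, of which 4 were at 0. In each of the 17 libraries with both clusters it was higher in cluster 1, which held for 0.5% of genes. The fitted log2 difference was 7.01 (SE 0.45). This fit, and each SE of a difference between clusters below, took the cluster sums of 1 library as separate samples and left out their pairing. It was 7.41 in control libraries alone and 6.55 in E2 libraries alone, where 61.1% of the 36 reads in responsive cells came from 1 cell of library 17.

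Within cluster 1, Mmp2 was found in some cells and not in others. A read was present in 81 of the 126 control cells and 25 of the 42 E2-treated cells, or 65.0 ± 18.7% (SD over 10 libraries) and 59.9 ± 12.1% (SD over 7 libraries). Among the 106 cluster 1 cells with a read, the median was 28 reads and the highest 216. The 62 cells without one had a median depth of 99664 reads, against 106304 in the cells with one. In responsive cells, 14.3% of control and 3.21% of E2-treated cells had a Mmp2 read, mostly a single one, since the median over the 36 cells was 1 read and 1 cell had 10 or more. After thinning to 20000 reads the shares in responsive cells were 2.56 ± 3.58% (SD over 10 libraries) and 1.39 ± 2.11% (SD over 9 libraries), while those in cluster 1 were 56.1 ± 17.1% (10 libraries) and 49.9 ± 17.4% (7 libraries).

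**Figure D4:**
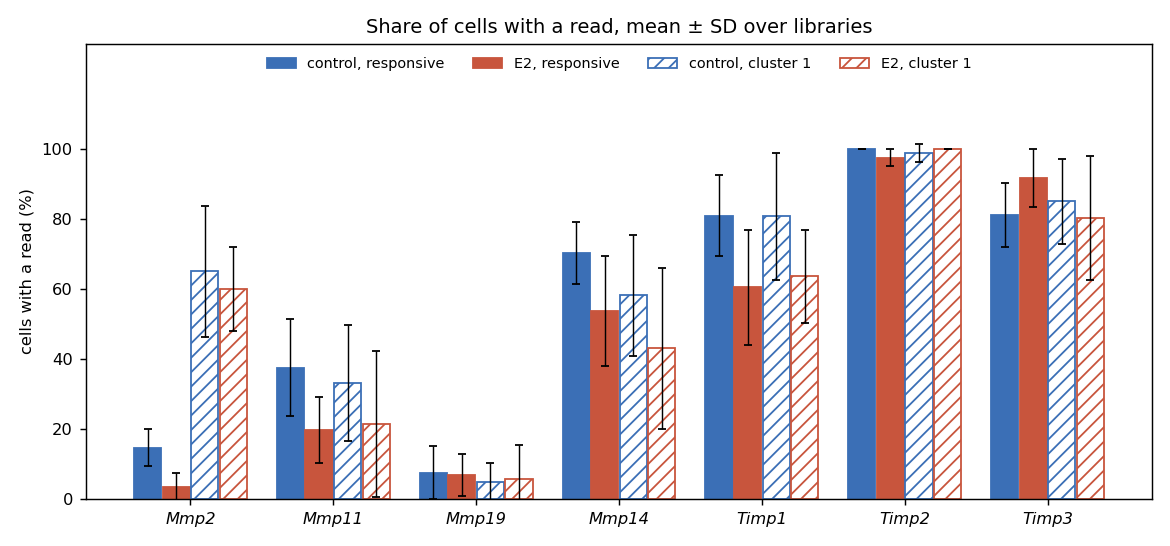
Share of cells (%) with a read of each gene, as the mean over libraries with bars of 1 SD. Solid bars are responsive cells and hatched bars cluster 1 cells, in blue for control and red for E2. Mmp2 was found in 65.0 ± 18.7% of control cluster 1 cells and 14.7 ± 5.36% of control responsive cells, while Timp2 was found in a mean of at least 97.6% of cells in every group.

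Timp2 was lower in cluster 1 in 14 of 17 libraries. In control libraries it was lower in cluster 1 than in responsive cells in 10 of 10, with a log2 difference of -0.70 (SE 0.10). In E2 libraries it was lower in 4 of 7, with a difference of -0.08 (SE 0.24), and the test of this unlike pattern is the interaction above. The control responsive libraries, at 1004 CPM and above, thus had the highest mean Timp2 level of the 4 groups (1171 CPM). The highest E2 cluster 1 library (1005 CPM) lay just above the lowest of them. The highest control cluster 1 library (1002 CPM) lay just below it. Mmp14 was lower in cluster 1 in 13 of 17 libraries (log2 difference -0.80, SE 0.32). Timp1 (-0.05), Timp3 (-0.18) and Mmp11 (0.26) had the smallest differences, and 2 of them turned sign. Timp1 was at 0.08 with RLE scaling, 0.12 in thinned cells, 0.013 with k-means labels and 0.0054 in E2 libraries alone. Mmp11 was at -0.041 in control libraries alone and at -0.27 with the library as a block, a fit in which the median of all genes was -0.50. Mmp19 was at 0 in 10 of 17 cluster 1 sums, and no fold is given for it. Over all genes, 50.1% differed by more than 0.5 in either direction.

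**Figure D5:**
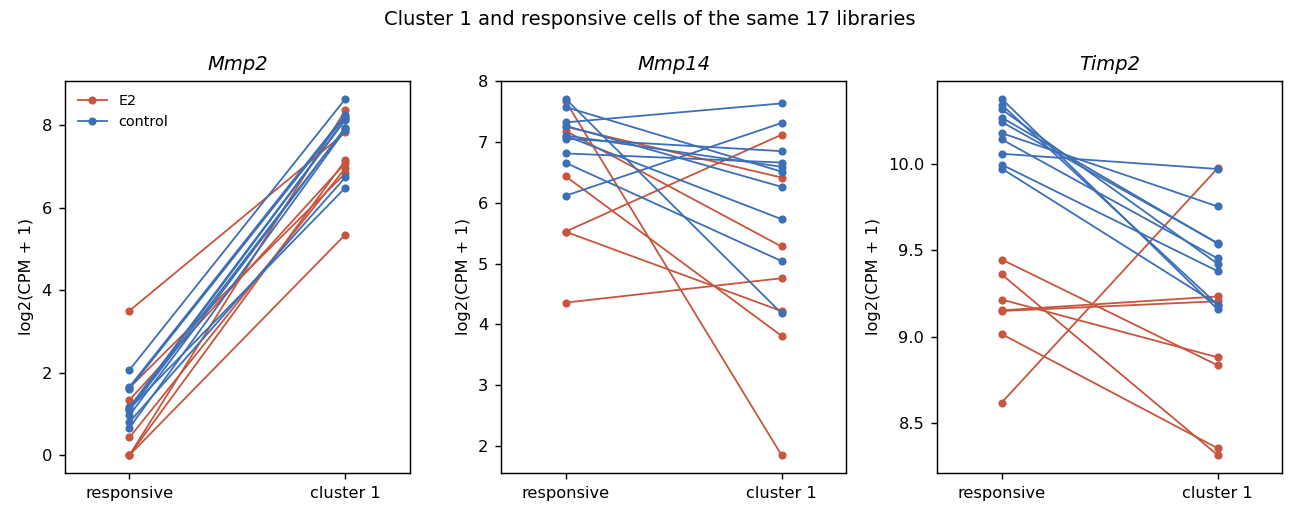
Level of Mmp2, Mmp14 and Timp2, as log2(CPM + 1), in responsive and cluster 1 cells of the same library, with 1 line for each of 17 libraries (10 control in blue, 7 E2 in red). Mmp2 rises in all 17 lines, Mmp14 falls in 13, and Timp2 falls in 10 of 10 control and 4 of 7 E2 lines.

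Cells with reads of all of Mmp2, Mmp14 and Timp2, the genes of the membrane activation complex, made up 40.5% of control and 33.3% of E2-treated cluster 1 cells, and 26.2% and 23.8% after thinning to 20000 reads. The cluster 1 share before thinning ran from 18.75% to 80% over control and from 0 to 57.1% over E2 libraries. Among responsive cells they made up 9.36% (19 of 203 cells) and 0.917% (2 of 218 cells), and 1.97% and 0.459% after thinning. The joint share cannot exceed that of Mmp2 alone, which before thinning was 64.3%, 59.5%, 14.3% and 3.21% in the same order of groups.

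Markers of other cell types moved with the clusters, and their part in the levels above was not tested. Of 8 stromal fibroblast markers, 6 had counts and all 6 had reads in each group. Their summed level was 1978 to 2393 CPM in control responsive cells and 2723 to 4396 CPM in control cluster 1 cells, and 1700 to 4669 and 2673 to 10445 CPM in E2. The markers did not move together. Col1a2 was at a mean of 14.7 CPM in control responsive and 1902 CPM in control cluster 1 cells, and Dcn was higher in cluster 1 in 11 of 17 libraries. Col1a1 was lower there in 16 of 17 libraries (log2 difference -0.95) and Col3a1 in 17 of 17 (-1.26), and Thy1 was at 107.8 to 308.5 CPM in control responsive and at 0 to 40.4 CPM in control cluster 1 cells. Of 5 theca markers, 3 had counts, led by Star, and summed to 15.3 to 137 CPM in responsive cells and 74.8 to 599 CPM in cluster 1, with Cyp11a1 at 0 in E2-treated cluster 1 cells. In responsive cells the fibroblast sum had a median of 2202 CPM in control and 1997 CPM in E2. The measured smooth muscle and pericyte markers (2 of 6) had a median of at most 0.505 CPM in every group, leukocyte markers (5 of 8) of at most 86.4 CPM and endothelial markers (3 of 6) of at most 525.7 CPM. The 1 measured granulosa marker of 6, Inha, had a median of 17.2 CPM in control and 19.2 CPM in E2 responsive cells, against 54.6 and 41.2 CPM in cluster 1.

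The authors also placed the cells on a branched trajectory built from the same genes, so that levels along it are a description. Timp2 had its highest pooled level in state 2, which held 143 control and 4 E2-treated cells, and its control cells were at 1014 to 1428 CPM over 10 libraries (CPM of plain totals). It was at 317 to 645 CPM over 9 libraries in state 5, of E2-treated cells only. State 4 held both treatments, and there Timp2 was at 974 CPM over 21 control cells and 714 CPM over 43 E2-treated cells, pooled over libraries. E2-treated cells of state 4 thus lay between those of state 5 and the control cells. Mmp2 was at 0 to 13.8 CPM over the library sums of states 2, 4 and 5, and at 40.7 to 445 CPM in state 1.

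Of the other genes of the protease system, no other MMP or TIMP among 2 tested, no activator, inhibitor or clearance receptor among 9, and no ADAM or ADAMTS protease among 13 was called with E2 in responsive cells. Of 20 tested matrix substrates, 2 rose and 2 fell, beside the 1.37% called among all tested genes. The type VI collagen chains Col6a2 (log2 fold change 1.04, SE 0.24) and Col6a1 (0.65, SE 0.15) rose, and Col5a2, a chain of type V collagen (-0.64, SE 0.16), and Bgn, the proteoglycan biglycan (-0.56, SE 0.12), fell, with edgeR adjusted p-values of 0.0126 to 0.0440. Of 9 tested inducers of MMP genes, 2 rose and none fell. They were the AP-1 subunits Fos (0.69, SE 0.15, edgeR adjusted p = 0.00871) and Fosb (1.09, SE 0.21, adjusted p = 0.00373). Each of these lists had a median near that of all genes (0.02), from -0.14 for the ADAM family to 0.16 for the other MMPs. Between clusters, Col1a2, a chain of type I collagen, was higher in cluster 1 in all 17 libraries (log2 difference 7.26), while 7 of 20 matrix substrates were lower in all 17, which held for 2.32% of genes. Of these, fibronectin (Fn1, -3.78), the laminin chain Lama4 (-2.44) and Col6a2 (-2.35) differed most, and the others were Col6a1 (-1.47), Col3a1 (-1.26), Sparc (-1.23) and Bgn (-1.17). Fos (-1.63) and Bsg (-0.61), which codes for an MMP inducer on the cell surface, were also lower in all 17. Over the 6 tested members the median log2 fold change with E2 in responsive cells was -0.62, a description that rests on few genes.

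The genes whose levels ran most like those of a member were ranked by Pearson's r of log2 CPM. Over all 36 sums, which share library and cluster, Mmp2 was closest to Col1a2 (r = 0.975), Lgals3 (0.952) and C1s1 (0.943). All of them were higher in cluster 1 too (log2 differences 7.26, 7.84 and 3.62). Their r values thus follow the difference between the clusters and are not separate support for it. Col1a2 ranked 3 for Mmp2 over the 19 responsive sums alone (r = 0.753). Over the 19 responsive sums, Timp2 was closest to Tnfaip2 (r = 0.901), Psap (0.900) and Gmpr (0.881), which were all called lower with E2. These sums hold both treatments, between which the Timp2 levels did not overlap. A gene that fell with E2 therefore ranks high here, and these r values are not separate support for the calls. For the other members the first-ranked gene had an r of 0.730 to 0.883 over the responsive sums, namely Rpl19 for Mmp11, Sars for Mmp14, Tnks for Mmp19, Aes for Timp1, Adat2 for Timp3 and Brwd1 for the sparse Mmp2.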

How the data were processed

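The authors quantified transcripts with kallisto (0.44.0, GRCm38 per the submitters' processing notes), summed them to genes with tximport, and kept sites with 1 live cell within limits on reads, genes and mitochondrial reads. The deposited values are estimated counts, not normalized, of which 66.9% of those above 0 were exactly whole. Their metadata, as deposited, hold the percent of mitochondrial reads, monocle states, a pseudotime score, not used here, and SC3 labels made from imputed values. No doublet caller was run, since sites with several cells had been removed.

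Counts were summed by library and cluster and rounded, and 2 sums with 3 cells in all fell under the minimum. Tests were edgeR 4.0.16 (R 4.3.3) quasi-likelihood fits with TMM and filterByExpr over all genes, with p-values adjusted after Benjamini and Hochberg. SE is the size of the log2 fold change over the root of F. CPM rest on TMM totals of all 36 sums. The code was tested on simulated data. Alternatives were DESeq2 1.42.0, limma-voom (limma 3.58.1), RLE scaling, no gene filter, thinning to 20000 reads, a minimum of 5 cells, k-means labels on 10 principal components without imputation (583 of 589 labels unchanged), the library as a block, each library left out, and 2 reads for detection. Positions are from GENCODE M21.

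All members are named in each comparison, and from wider lists, written from general knowledge, up to 5 called genes per direction and, between clusters, up to 3 per direction with 1 sign in every library (Col6a1, Col3a1, Sparc and Bgn were named beyond this, after their values were seen). The members and lists were chosen with earlier results of these data known. Column numbers pair no control with E2 libraries.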

Additional observations from a re-analysis of the deposited data

Results flagged for a closer look

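Each member was checked in each of the 4 groups for a library that stood far from the rest (the gap to its neighbour against the range of the group, by Dixon's criterion). Of 28 such groups, 5 held one, where chance gives about 1 in 20 for normally spread values. That rate does not hold for groups with many libraries at 0, so the count of 5 is not read as an excess. Libraries at 0 numbered 4 of 9 for Mmp2 in E2 responsive cells. For Mmp19 in cluster 1 they numbered 5 of 10 in control and 5 of 7 in E2. Timp2 in E2-treated cluster 1 cells was at 1005 CPM in library 15, whose sum held 3 cells, and the next library was at 600.9 CPM. Timp3 in control responsive cells was at 390.5 CPM in library 5, against 618.1 CPM in the next lowest. Mmp2 in E2 responsive cells was at 10.33 CPM in library 17, mostly from 1 cell, and the next was at 2.103 CPM. Mmp19 in cluster 1 was at 22.02 CPM in control library 9, next to 3.663 CPM, and at 6.507 CPM in E2 library 16, next to 1.646 CPM, and in both groups over 70% of its reads came from 1 cell.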

How the results depend on the processing

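Timp2 stayed called lower with E2 in responsive cells under all 7 alternatives (-1.03 to -0.999) and without any 1 of 19 libraries (-1.05 to -0.95). The count of members called there rose from 1 to 2 with DESeq2, through Timp1, and in thinned cells, through Mmp11, and was 1 to 2 with a library left out. DESeq2 called 234 genes where edgeR called 141, and 107 to 141 were called with a library left out. In cluster 1 cells, 7 genes were called, 52 by DESeq2, 1 with no gene filter and 1 to 9 with a library left out. For the interaction, 21 genes were called, 98 by DESeq2, 13 by limma-voom, 5 in thinned cells and 0 with the library as a replicate block (the 2 clusters of a library paired). With that block the interaction of Timp2 was 0.56 (edgeR adjusted p = 0.662), in a fit where the median of all genes was -0.55, and no member was called.

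Values near 0 changed sign. Timp3 with E2 in cluster 1 was -0.070 by limma-voom and -0.11 with at least 5 cells per sum, a setting that drops only library 15 there. With a library left out it ran from -0.11 to 0.32. In responsive cells Timp3 ran from -0.051 to 0.066 and Mmp19 from -0.18 to 0.86 with a library left out. The interaction of Timp1 was 0.21 by DESeq2, 0.21 with RLE scaling and 0.0028 in thinned cells, that of Timp3 was -0.17 by limma-voom, -0.15 with at least 5 cells and -0.0019 with the block, and that of Mmp2 was 0.42 by limma-voom. The cause was not tested. RLE scaling moved the median of all genes from -0.06 to 0.05 in cluster 1 and from -0.19 to -0.02 for the interaction. Cluster 1 sums held 8 to 18 cells in control and 3 to 9 in E2, and responsive sums 15 to 25 and 17 to 30.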

Other observations

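Bsg, named above for its difference between clusters, was at 480 CPM (mean over 10 libraries) in control and 657 CPM (9 libraries) in E2 responsive cells. It was not called with E2 (edgeR adjusted p = 0.122). Pcsk6, a proprotein convertase, was at 71.7 CPM in control cluster 1 cells and 4.61 CPM in control responsive cells, a difference given without a test.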
